A study of Mus musculus with 44 samples.

Results

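The 42 genes described here carry out DNA replication and the entry into S phase. They were chosen by name, with earlier results of these data known. All 42 were found in the table of cultured cells, among 12335 genes, and 28 of them were used from the table of cells taken from the injured spinal cord, among 8218 genes. Symbols are printed in capitals, as both tables give them. RNA of mouse cells (strain C57BL/6) was sequenced in 44 libraries. In culture, bone marrow macrophages grown in M-CSF (11 libraries) and microglia taken from the primary glial culture of newborn mice (12 libraries) were given TGFb1 at 100 ng/ml and measured at 0, 1, 3, 6, 16 and 20 h, with 2 libraries each and 1 of macrophages at 6 h. From mice with a contusion of the spinal cord of 200 kdyn, sorted microglia were measured at time 0 (3 libraries), 1 h, 16 h and days 1, 3 and 7 (2 libraries each), and sorted monocytes at all but the earliest pair of these times (2 libraries each). The 14 genes not used from the cord are MCM4, CDC45, GINS1, GINS3, ORC1, ORC6, POLA1, POLE, POLE2, PRIM2, RFC3, RFC4, TYMS and E2F1.

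Several limits of these groups as models follow from the labels. Every later culture had TGFb1 and none was left untreated, so that TGFb1 and time in culture cannot be told apart. The markers of the sort are not named, and the mice of time 0 are listed as injured like the others. Ages are given for the newborn donors of microglia and for no other mice. Nothing states that replicates are separate mice or cultures, and every p-value therefore measures a spread between libraries that may be technical.

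Before S phase, the origin recognition complex, CDC6 and CDT1 load the ring-shaped MCM helicase onto DNA. Kinases and the factors MCM10, CDC45 and GINS then start it. Primase and DNA polymerases copy the strands behind it, the clamp PCNA holds the polymerases, and enzymes such as FEN1 and LIG1 join the pieces of the lagging strand. The E2F family of transcription factors is known to drive many of these genes as cells pass from G1 into S phase. Macrophages from bone marrow divide in the presence of M-CSF, and resident microglia are known to renew themselves slowly and to proliferate after injury.

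The promoters of the helicase genes and of CDC6, which helps to load them, are shown because the E2F site is a known feature of this group, and that of MCM10 because its level ran against the other 41 genes in culture. Each line gives the 250 bases before an annotated start, 5′ to 3′ on the strand of the gene, from RefSeq on build GRCm38.p6. Capitals mark the letters TTTCCCGC, TTTCGCGC, TTTGCCGC or TTTGGCGC on either strand, and matches that overlap are run together. MCM5 lies on the plus strand (chr8:75109259-75109508), with overlapping matches whose first letters are at -153 and -149 from the start. MCM6 lies on the minus strand (chr1:128359706-128359955), with overlapping matches at -110 and -106 and a further one at -47. MCM7 lies on the minus strand, and the upstream one of its annotated starts is shown (chr5:138171884-138172133), with a match at -165. MCM2 (chr6:88898781-88899030) and MCM3 (chr1:20820313-20820562), both on the minus strand, had no match in this window, nor had the other annotated start of MCM7, and MCM4 has no entry in the table. CDC6 lies on the plus strand (chr11:98907901-98908150), with a match at -138. MCM10 lies on the minus strand (chr2:5012792-5013041) and had none of these letters in this window, like most of the 42 genes.
MCM5: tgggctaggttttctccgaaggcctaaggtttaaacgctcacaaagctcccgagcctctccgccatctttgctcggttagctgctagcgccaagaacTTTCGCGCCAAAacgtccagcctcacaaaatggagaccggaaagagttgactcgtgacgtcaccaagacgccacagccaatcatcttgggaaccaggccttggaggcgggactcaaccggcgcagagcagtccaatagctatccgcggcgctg
MCM6: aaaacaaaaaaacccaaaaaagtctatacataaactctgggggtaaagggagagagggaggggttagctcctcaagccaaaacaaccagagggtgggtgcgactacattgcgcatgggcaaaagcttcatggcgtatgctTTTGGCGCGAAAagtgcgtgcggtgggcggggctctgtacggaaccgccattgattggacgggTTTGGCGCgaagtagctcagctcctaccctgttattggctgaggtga
MCM7: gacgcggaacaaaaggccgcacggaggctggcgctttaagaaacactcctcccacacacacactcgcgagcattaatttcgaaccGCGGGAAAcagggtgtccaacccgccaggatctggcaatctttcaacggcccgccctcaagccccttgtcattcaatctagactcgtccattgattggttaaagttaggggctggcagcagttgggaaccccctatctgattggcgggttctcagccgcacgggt
MCM2: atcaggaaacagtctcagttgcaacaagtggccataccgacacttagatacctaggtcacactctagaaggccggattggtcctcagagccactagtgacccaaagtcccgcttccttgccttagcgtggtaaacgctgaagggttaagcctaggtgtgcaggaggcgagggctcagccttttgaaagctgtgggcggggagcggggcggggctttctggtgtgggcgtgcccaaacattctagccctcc
MCM3: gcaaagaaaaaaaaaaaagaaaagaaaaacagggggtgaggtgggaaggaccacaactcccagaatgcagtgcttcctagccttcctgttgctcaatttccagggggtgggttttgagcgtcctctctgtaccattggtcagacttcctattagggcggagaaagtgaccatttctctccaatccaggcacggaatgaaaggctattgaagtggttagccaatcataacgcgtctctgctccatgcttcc
CDC6: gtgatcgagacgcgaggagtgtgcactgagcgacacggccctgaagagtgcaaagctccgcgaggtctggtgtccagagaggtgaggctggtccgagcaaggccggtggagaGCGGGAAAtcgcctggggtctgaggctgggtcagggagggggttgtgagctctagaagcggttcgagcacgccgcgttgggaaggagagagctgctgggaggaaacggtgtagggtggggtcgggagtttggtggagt
MCM10: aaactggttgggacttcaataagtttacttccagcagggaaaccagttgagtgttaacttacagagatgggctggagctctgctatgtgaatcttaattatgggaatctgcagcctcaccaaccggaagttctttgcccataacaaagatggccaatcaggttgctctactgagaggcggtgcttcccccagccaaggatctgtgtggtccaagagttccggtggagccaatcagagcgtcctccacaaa

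Of the 42 genes 35 had a promoter in the RefSeq table. The letters were found before a start in 9 of these 35 (25.7%): MCM5, MCM6, MCM7, CDC6, ORC1, GINS3, POLA1, RFC3 and UHRF1. Among all 27025 genes with a promoter the share was 2.16%, and among the 8755 genes of the culture table that had one it was 4.04%. With the first 50 bases after the start counted too, MCM3, CDT1, POLD1, POLE2 and LIG1 joined them, which gave 14 of 35 (40%) against 2.61% of all genes and 4.82% of those in the culture table. The 30 other replication genes with a promoter had shares like those of the 42 genes, 8 of 30 (26.7%) before a start and 12 of 30 (40%) with the bases after it. Genes of mitosis had it in 1 of 25 (4%) on both counts. A match describes the letters and is not a binding site.

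The values are the authors' signal per gene, which behaves like read counts scaled by a factor per library, and a value of exactly 1 stands where no read was counted. Dividing a library's total by the value of a single read gave 1172368 to 1881002 estimated reads for cultured macrophages, 1746624 to 2249291 for cultured microglia, 31459 to 187973 for microglia from the cord and 133911 to 731692 for monocytes. Across genes, libraries of the same group correlated at 0.96 to 0.97 in the cultures, at 0.80 to 0.93 for monocytes and at only 0.51 to 0.78 for microglia from the cord. The cultured microglia carried their defining markers: 9 measured microglial markers made up 0.479 to 0.736% of the total, against 0.0225 to 0.104% in macrophages, where SALL1 was listed at 1 in every library. Both libraries of microglia at day 3 stood apart from each other, and counts that rest on them are given with and without them.

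In culture, macrophages held far more of the replication machinery than microglia. The summed signal of the 42 genes was 0.309% ± 0.00493 of the total in macrophages at 0 h and 0.0992% ± 0.00316 in microglia (SD, n = 2 each). The 42 genes made up 0.235 to 0.412% over all 11 macrophage libraries and 0.0861 to 0.106% over all 12 microglia libraries, so that the ranges did not overlap. At 0 h 37 of the 42 were higher and 1 was lower in macrophages, where 21.5% of all genes were called higher and 29.6% lower (limma, adjusted p under 0.05 over all genes). Late, at 16 and 20 h, 41 were higher and 1 lower, against 27.2% and 36.9% of all genes. The median log2 difference of the 42 genes was 1.93 at 0 h and 2.23 late, while that of all genes was -0.13 and -0.15.

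**Figure D1:**
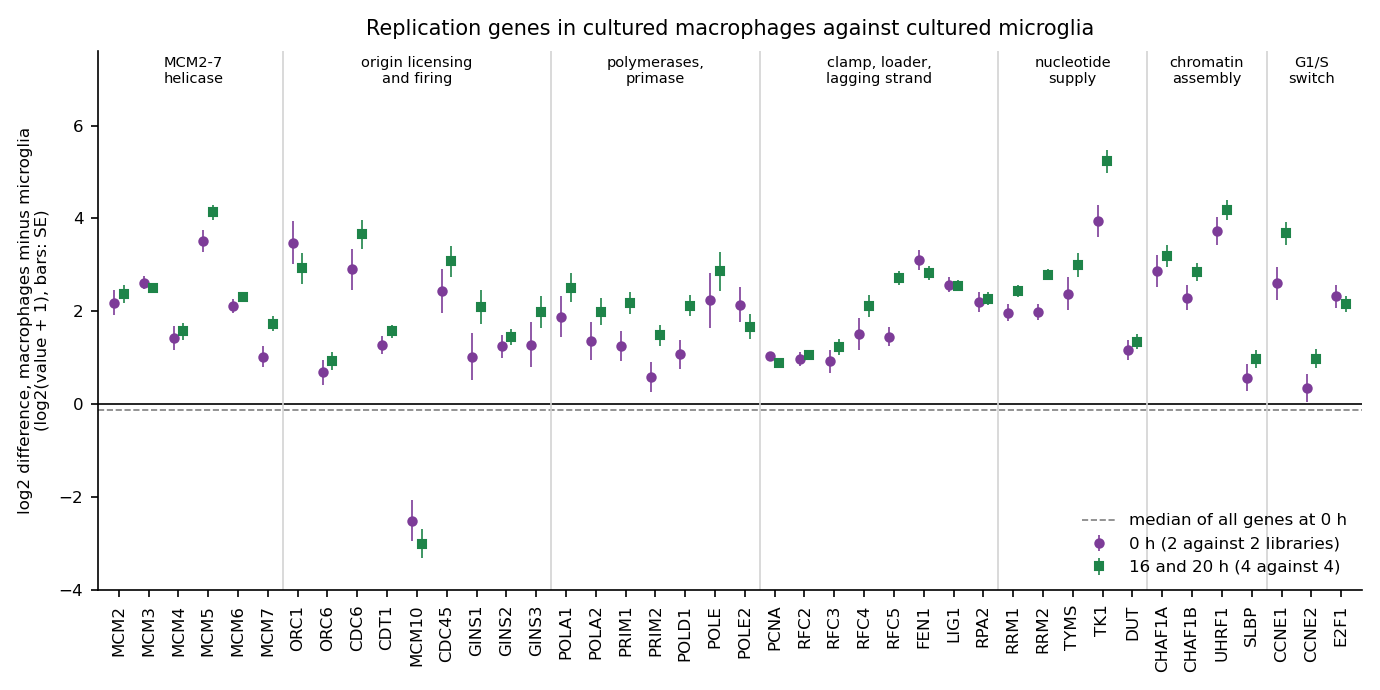
Log2 difference of each of the 42 genes between cultured macrophages and cultured microglia, at 0 h (circles) and at 16 and 20 h (squares), grouped by role, with bars of 1 standard error. All genes but MCM10 lie above 0 at both times, and the dashed line is the median of all genes at 0 h (-0.13).

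All 6 subunits of the helicase were higher in macrophages at 0 h, with a median log2 difference of 2.15. MCM5 was at 316 and 329 in macrophages and at 24.7 and 30.6 in microglia (11.7-fold, log2 3.51, SE 0.24, adjusted p = 1.91e-10). MCM3 was at 366 and 357 against 58.0 and 58.4 (6.21-fold, adjusted p = 3.63e-12). MCM6 was at 522 and 451 against 101 and 122 (4.36-fold, adjusted p = 3.46e-10). In each of these the lowest macrophage library of the whole course lay above the highest microglia library, for MCM5 at 219 against 33.0.

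Nucleotide supply and the clean-up of the lagging strand followed the same order. TK1, the thymidine kinase that salvages thymidine in S phase, showed the widest gap: 114 and 85.7 in macrophages at 0 h against 7.98 and 3.71 in microglia (17.1-fold, log2 3.94, SE 0.35, adjusted p = 1.11e-08). Ribonucleotide reductase makes the building blocks of DNA. Its large subunit RRM1 was at 181 and 226 against 45.0 and 57.5 (3.98-fold, adjusted p = 2.49e-08). Its small subunit RRM2 was at 142 and 154 against 39.2 and 34.3 (4.02-fold, adjusted p = 4.84e-09). All 5 genes of nucleotide supply were higher at 0 h, with a median log2 difference of 1.98. FEN1, the nuclease that trims lagging strand flaps, was at 315 and 350.0 against 34.8 and 40.8 (8.79-fold, adjusted p = 3.61e-10). The ligase LIG1 was at 216 and 214 against 31.2 and 39.9 (6.06-fold, adjusted p = 1.35e-10). PCNA, the sliding clamp, differed least among the named genes, at 616 and 557 against 271 and 302 (2.04-fold, log2 1.03, SE 0.10, adjusted p = 2.38e-08). All 8 genes of the clamp, its loader and the lagging strand were higher at 0 h.

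UHRF1, which brings DNA methylation to newly copied DNA, led the chromatin group at 178 and 216 against 12.7 and 15.3 at 0 h (14.1-fold, log2 3.72, SE 0.30, adjusted p = 3.54e-09). The polymerase subunit POLD1 ran from 50.5 to 91.8 over all macrophage libraries and from 9.27 to 42.7 over all microglia libraries. E2F1, a transcription factor of the switch into S phase, ran from 109 to 256 and from 24.1 to 46.8, again without overlap. The loader CDT1 ran from 86.2 to 229 and from 46.0 to 123, and these ranges overlapped. In all, 34 of the 42 genes had every macrophage library above every microglia library over the whole course, where 12.9% of all genes did, and 1 had every macrophage library below, as did 18.7% of all genes. CDT1, ORC6, GINS1, GINS3, PRIM2, SLBP and CCNE2 overlapped. The 4 genes that were not called at 0 h were GINS1, PRIM2, SLBP (the binding protein of histone mRNA) and CCNE2 (a cyclin of the S-phase switch), and all 4 were called higher late.

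The remaining members lay in the same order, most at lower values. Among helicase subunits MCM2 ran from 54.2 to 149 over the macrophage libraries and from 14.2 to 32.3 over the microglia libraries. MCM4 ran from 78.5 to 127 and from 28.0407 to 43.7, and MCM7 from 75.3 to 172 and from 34.9 to 63.1. Of the genes that prepare and start origins, CDC6, which loads the helicase with CDT1, ran from 23.9 to 82.2 in macrophages and from 1 to 7.59 in microglia. CDC45, part of the running helicase, ran from 20.5 to 50.7 and from 1.86 to 9.46. ORC1, the large subunit of the origin recognition complex, ran from 9.37 to 28.1 and from 0.725 to 4.01, so that microglia held a handful of reads for each of these 3 genes.

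Polymerase genes showed the same. POLE, the catalytic subunit of the leading strand polymerase, ran from 13.5 to 47.8 in macrophages and from 0.801 to 10.7 in microglia. PRIM1, the catalytic primase subunit, ran from 27.3 to 51.0 and from 7.28 to 14.5. Among clamp loader subunits RFC2 ran from 133 to 180.3 and from 67.5 to 97.0, and RFC3 from 67.9 to 137 and from 30.6 to 55.3. RPA2, of the complex that coats single strands, ran from 122 to 263 and from 28.3 to 50.4. CHAF1A, the large subunit of the chromatin assembly factor, ran from 30.1 to 101 and from 5.31 to 17.3. CCNE1, a cyclin that drives entry into S phase, ran from 42.1 to 163 and from 5.90 to 17.5. None of these ranges overlapped.

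MCM10 went the other way and is named after its values were seen. It helps to start the loaded helicase. MCM10 was at 15.0 and 17.6 in macrophages at 0 h and at 138 and 67.9 in microglia (6.31-fold lower, log2 -2.50, SE 0.43, adjusted p = 6.9e-05). Over the course it stayed between 7.76 and 22.8 in macrophages and between 49.5 and 159 in microglia. Late it was 9.14-fold lower (SE of the log2 difference 0.31, adjusted p = 4.42e-08), and the difference of its late change was not called (adjusted p = 0.717). Its number of estimated reads was not whole, by over 0.05 reads, in 22 of the 23 culture libraries, as was that of SLBP in 22 and of MCM2 in 21, while 21 of the 42 genes had whole reads in all. What the fractions stand for is not stated, so that the value of MCM10 is uncertain.

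Late, the genes with the smallest p were largely those of 0 h, with the clamp loader subunit RFC5 in place of PCNA. TK1 stood at 164 to 199 in macrophages and 2.42 to 5.29 in microglia (46-fold, log2 5.23, SE 0.25, adjusted p = 3.2e-13). MCM5 was 18.1-fold higher (log2 4.13), UHRF1 19.2-fold (log2 4.18), FEN1 7.08-fold (log2 2.82), RRM2 7.08-fold (log2 2.79), RFC5 6.71-fold (log2 2.72), LIG1 6.01-fold (log2 2.55), MCM3 5.79-fold (log2 2.51), RRM1 5.496-fold (log2 2.44) and MCM6 5.05-fold (log2 2.31). For these 10 genes the adjusted p (limma) ran from 1.1e-14 to 3.14e-12, and no library of either cell type overlapped the other. As the genes were picked by their small p in this comparison, the separation adds no support of its own. How many of all genes separate so at the late times was not counted.

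Other marks of division differed between the cultures as well. At 0 h 21.5% of all genes were called higher in macrophages and 29.6% lower. Among 39 other replication genes 28 were higher in macrophages at 0 h and none lower, such as DNMT1, the maintenance DNA methyltransferase (372 against 88.0, adjusted p = 3.89e-09). Of 28 mitosis genes 23 were higher and none lower, BIRC5, a subunit of the chromosomal passenger complex, at 226 against 51.0 (adjusted p = 3.11e-07). Among 27 genes that control the passage from G1 into S, 14 were higher and 8 lower, the count of 8 being near the share of all genes. CCND1, a D-type cyclin, was higher in macrophages (865 against 318, adjusted p = 2.21e-09) and its relative CCND2 lower (121 against 275, adjusted p = 8.08e-08).

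Tissue, medium and cell type all differed between these cultures and cannot be told apart. The age of the macrophage donors is not given, so that a part of age cannot be told apart either. The microglia cultures held 6 measured oligodendrocyte markers at 0.0555 to 0.0721% of the total and 6 astrocyte markers at 0.0102 to 0.0120%, against 0.00155 to 0.00659% and 0.000856 to 0.00242% in macrophages, where GFAP and AQP4 were listed at 1 in every library. Of all genes, 8.84 to 10.3% were listed at 1 in macrophages and 1.39 to 1.78% in microglia. The part of these values in the differences was not tested. Here and below, fewer cells of a type and less RNA per cell cannot be told apart in bulk RNA. Several of the genes overlap another coding gene in the RefSeq annotation (MCM7 with Ap4m1, FEN1 with Tmem258, LIG1 with Zswim9, TK1 with Afmid, CCNE2 with Ints8, E2F1 with Necab3, 12 of the 42 in all), and whether reads were counted by strand is not stated. PCNA and TYMS have pseudogenes named after them, so that their values are uncertain where reads were split.

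Under TGFb1, the macrophages first had less and then more of the replication genes. The summed share of the 42 genes was 0.309% ± 0.00493 at 0 h, 0.303% ± 0.0107 at 1 h, 0.244% ± 0.0125 at 3 h, 0.272% in the lone library of 6 h, 0.399% ± 0.0182 at 16 h and 0.337% ± 0.00448 at 20 h (SD, n = 2 each but for 6 h). Both libraries of 16 h lay above every other macrophage library. In microglia it was 0.0992% ± 0.00316, 0.104% ± 0.00262, 0.0944% ± 0.00534, 0.0956% ± 0.00217, 0.0902% ± 0.00465 and 0.0908% ± 0.00666 at the same times, with no step of that size. Markers of other cells had other shares at these times in macrophages too. Microglial markers (9 measured) made up 0.0248 to 0.0263% at 0 h, 0.0277 to 0.0329% at 3 and 6 h and 0.0732 to 0.104% late. Oligodendrocyte markers made up 0.00155 to 0.00185%, 0.00319 to 0.00419% and 0.00605 to 0.00659% at these times. Neutrophil markers made up 0.0289 to 0.0310%, 0.0248 to 0.0295% and 0.0324 to 0.0406%. Their part in the course of the replication genes was not tested.

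**Figure D2:**
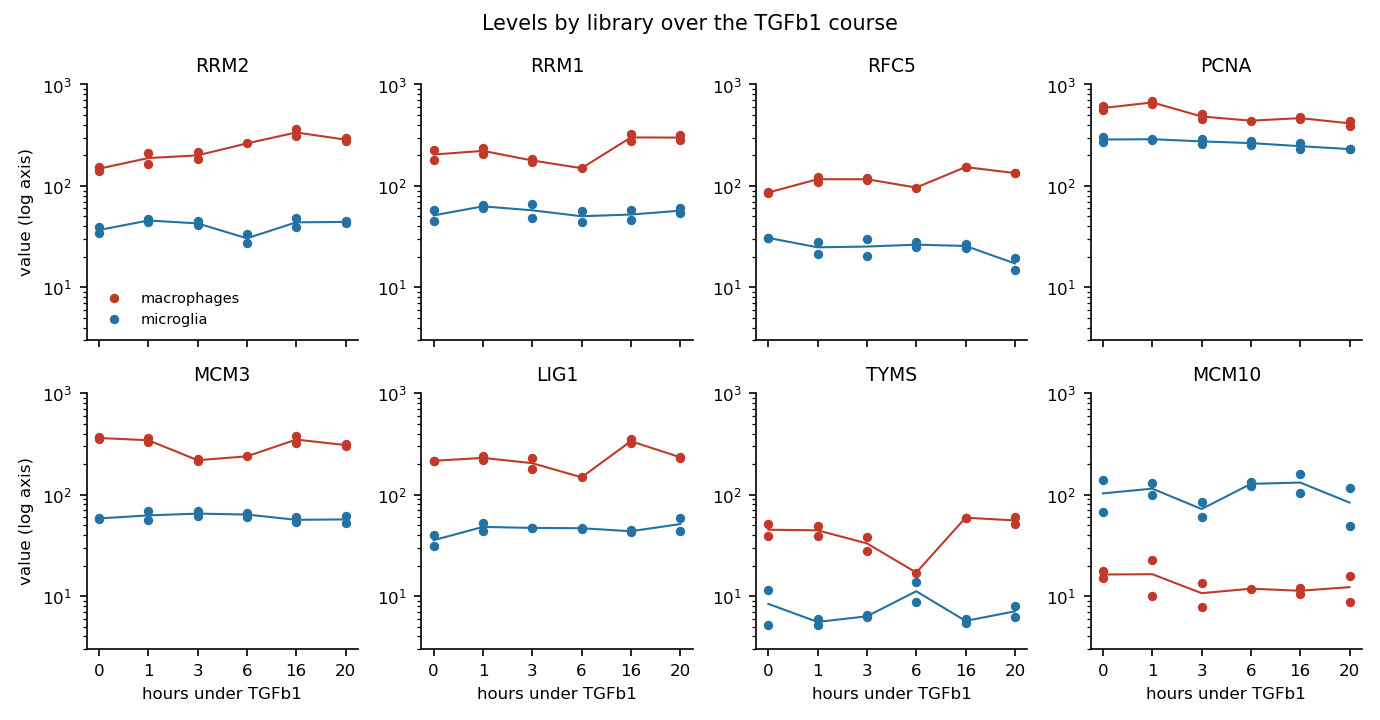
Value of 8 genes in each library (points, log axis) against hours under TGFb1, with lines through the means of macrophages (red) and microglia (blue). RRM2 of macrophages climbs from 142 and 154 at 0 h to 310.5 and 363 at 16 h, TYMS lies at 17.0 at 6 h and at 59.1 and 59.4 at 16 h, and MCM10 alone lies higher in microglia.

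At 1 h no gene of the 42 passed in either cell type (limma, 1 in macrophages and 3 in microglia at an unadjusted p under 0.05), where 3.01% of all genes were called in macrophages and 0.34% in microglia. In macrophages CCNE2 had the smallest p, at 31.1 and 34.9 against 50.3 and 52.6 at 0 h (log2 -0.63, SE 0.29, adjusted p = 0.337). RFC5 was at 109 and 124 against 85.3 and 86.9 (log2 0.43, SE 0.21, adjusted p = 0.368), and RRM2 at 166 and 211 against 142 and 154 (log2 0.34, SE 0.17, adjusted p = 0.375). In microglia CDT1, the licensing factor, was at 123 and 114 against 65.3 and 69.6 (log2 0.81, SE 0.20, adjusted p = 0.143). The chromatin assembly subunit CHAF1B was at 25.6 and 32.1 against 15.2 and 15.8 (adjusted p = 0.445), and LIG1 at 52.8 and 43.3 against 31.2 and 39.9 (adjusted p = 0.696). None of these pairs of libraries overlapped, but the genes were picked by their small p and none was called.

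At 3 and 6 h, pooled as the middle of the course, 2 of the 42 genes fell in macrophages and 1 rose, where 6.44% of all genes fell and 6.8% rose. Both counts lay below these shares. MCM3 fell from 366 and 357 to 213 and 224 at 3 h and 239 at 6 h (1.58-fold lower, log2 -0.66, SE 0.13, adjusted p = 0.00128). PCNA fell from 616 and 557 to 462, 506 and 439.8 (log2 -0.34, SE 0.09, adjusted p = 0.0143). RRM2 rose to 217, 183 and 263 (1.56-fold, log2 0.63, SE 0.16, adjusted p = 0.00973). The median log2 change of the 42 genes was -0.28, with 34 below 0, while that of all genes was 0.00. It was -0.26 under quantile normalization and -0.32 with equal totals. All 6 helicase genes had a fitted change below 0, with MCM3 the only call among them. The calls of PCNA and RRM2 ended without the library of 6 h (or with 3 h alone), and without 0 h replicate 1 only MCM3 was left.

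Late, at 16 and 20 h, 3 genes stood above their level of 0 h and 1 below it, against 6.32% and 5.94% of all genes. Of the 42 genes, the count above was near that share and the count below was under it. RRM2 rose to 310.5 and 363 at 16 h and 278 and 294 at 20 h (2.10-fold, log2 1.06, SE 0.14, adjusted p = 2.54e-05). RFC5, a subunit of the clamp loader, rose from 85.3 and 86.9 to 153 and 153 and then 133 and 135 (1.67-fold, log2 0.73, SE 0.18, adjusted p = 0.00991). RRM1 rose from 181 and 226 to 325, 277, 315 and 284 (1.47-fold, log2 0.56, SE 0.16, adjusted p = 0.0250). Both subunits of ribonucleotide reductase were thus above 0 h in every late library. PCNA, in contrast, fell to 457, 475, 387 and 441 (1.33-fold lower, log2 -0.42, SE 0.08, adjusted p = 0.00177). RFC5 and the clamp that it helps to load thus changed in opposite directions, and no other loader subunit was called. The median log2 change of the 42 genes was 0.26, with 33 above 0 (0.22 under quantile normalization, 0.30 with equal totals). Without 0 h replicate 1 the count was 1 instead of 4, and RRM2 was the gene still called. RRM1 also missed the threshold without 16 h replicate 2 or 20 h replicate 1, with a variance without a trend and in a fit of macrophages alone (adjusted p of up to 0.264), and RFC5 without 0 h replicate 2.

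The rise from the middle to the late times was the clearest change of this group under TGFb1. From 3 and 6 h to 16 and 20 h, 11 of the 42 genes rose and none fell, where 10.5% of all genes rose and 10.2% fell. The median log2 change was 0.54, and 41 of the 42 were above 0 (0.50 under quantile normalization, 0.62 with equal totals). This comparison shares its libraries with both comparisons against 0 h. The 11 genes came from 6 of the 7 roles, and none from chromatin assembly and histone supply, where 3 of 4 had an unadjusted p under 0.05.

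RRM1 had the smallest p. It rose from 171, 185 and 149.6 to 325, 277, 315 and 284 (1.83-fold, log2 0.87, SE 0.15, adjusted p = 0.000227). TYMS, which makes thymidylate, rose from 28.1, 38.0 and 17.0 to 59.1, 59.4, 59.7 and 51.6 (2.29-fold, log2 1.24, SE 0.28, adjusted p = 0.00344). RRM2 rose from 217, 183 and 263 to between 278 and 363 (1.35-fold, log2 0.43, SE 0.13, adjusted p = 0.0228). Nucleotide supply thus gave 3 of its 5 genes. LIG1 rose from 178, 231 and 148 to 352, 320.5, 235 and 232 (1.62-fold, log2 0.69, SE 0.13, adjusted p = 0.000895). Its 20 h libraries lay only just above the highest library of 3 h.

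Of the helicase, MCM3 rose from between 213 and 239 to between 303 and 377 (1.44-fold, adjusted p = 0.00164), which brought it back near its 366 and 357 of 0 h. MCM7 rose from 75.3, 92.5 and 101 to 158, 172, 149 and 144 (1.69-fold, log2 0.76, SE 0.17, adjusted p = 0.00389), above its 115 and 116 of 0 h. POLA1, the catalytic subunit of the polymerase that works with primase, rose from 14.5, 21.1 and 19.3 to 31.0, 39.7, 68.4 and 43.7 (2.47-fold, adjusted p = 0.0164). Its partner PRIM2, the large primase subunit, rose from 38.4, 26.9 and 29.6 to 95.5, 63.0, 49.8 and 53.5 (2.10-fold, adjusted p = 0.00777). These are the low values among the called genes, and the late libraries of POLA1 spread most. CCNE2 rose from 59.2, 32.8 and 47.4 to 98.5, 78.1, 89.6 and 76.6 (1.83-fold, adjusted p = 0.00958). CDT1 rose from 86.2, 109 and 135 to 184, 181, 164 and 151 (1.46-fold, adjusted p = 0.0147). E2F1, the eleventh call, rose by 0.57 on the log2 scale (SE 0.20, adjusted p = 0.0465), with 124, 116 and 109 in the middle and 166, 256, 137 and 143 late. No middle library overlapped a late one in any of the 11 genes. As they were picked by their call in this comparison, this adds no support of its own. MCM3, MCM7, LIG1 and RRM1 were called in every setting tried, while TYMS missed the threshold without the library of 6 h, RRM2 without 3 h replicate 2, 16 h replicate 1 or 20 h replicate 2, CDT1 without 3 h replicate 1, and POLA1 without 3 h replicate 1 or 20 h replicate 1. In a fit of macrophages alone RRM2, CCNE2 and PRIM2 missed it.

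**Figure D3:**
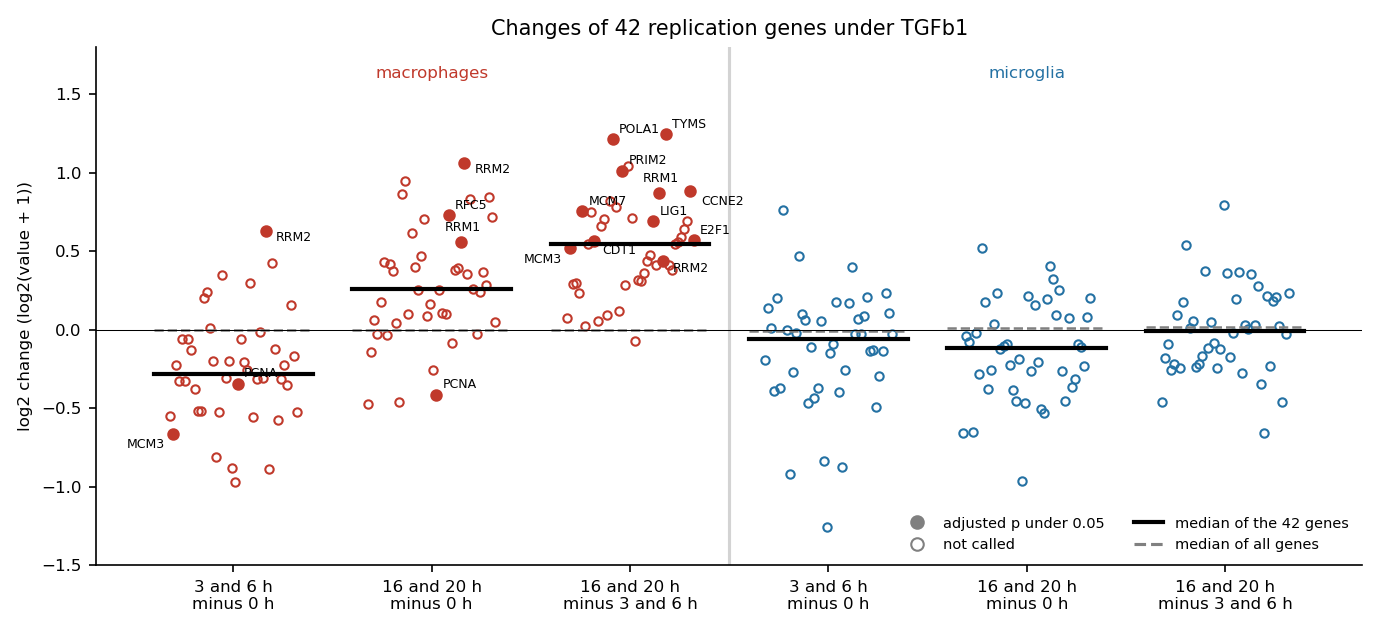
Log2 change of each of the 42 genes (points, in order of role) in 6 comparisons of times under TGFb1, for macrophages (red) and microglia (blue); filled points passed an adjusted p under 0.05, black lines are medians of the 42 genes and dashed lines medians of all genes. In macrophages the median goes from -0.28 in the middle to 0.26 late, and in microglia no point is filled.

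In microglia none of the 42 genes was called at any time. In the middle of the course 1.16% of all genes were called, late 3.01% and from middle to late 1.22%, and 6 of the 42 genes had an unadjusted p under 0.05 in each of these 3 comparisons. The medians of the 42 genes were -0.06, -0.12 and -0.01. The smallest adjusted p belonged to POLD1, the catalytic subunit of a replicative polymerase, which late was at 14.9, 9.27, 23.8 and 23.0 against 26.1 and 42.7 at 0 h (log2 -0.96, SE 0.27, adjusted p = 0.0670). MCM5 was at 22.8, 16.0, 11.5 and 20.3 late against 24.7 and 30.6 (log2 -0.65, SE 0.20, adjusted p = 0.107). PCNA was at 263, 229.8, 233 and 229 against 271 and 302 (log2 -0.26, SE 0.08, adjusted p = 0.108). For these 3 genes, picked by their small p, every late library lay below both libraries of 0 h. How many of all genes did so was not counted. Late there were 2 calls under quantile normalization, 1 in a fit of microglia alone, and 1 without 16 h replicate 2 or without 20 h replicate 2.

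In the middle of the microglial course, POLD1 was at 13.8, 12.4, 26.9 and 24.0 against 26.1 and 42.7 (adjusted p = 0.223). The loader subunit RFC4 averaged 10.4 against 21.4 (adjusted p = 0.249), and LIG1 46.8 against 35.5 (adjusted p = 0.342). From the middle to the late times MCM2 averaged 24.9 and then 17.6 (adjusted p = 0.422), PCNA 269.6 and 239 (adjusted p = 0.345) and TK1 6.70 and 3.87 (adjusted p = 0.315). TK1 rested on 11 estimated reads or fewer in every microglia library.

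The late change against 0 h was then compared between the cell types. It was higher in macrophages for RFC5 (difference of the log2 changes 1.26, SE 0.26, adjusted p = 0.00516) and for RRM2 (0.81, SE 0.20, adjusted p = 0.0265), and lower for none, where 2.49% of all genes were higher and 1.89% lower. RFC5 was at 26.8, 24.5, 15.0 and 19.5 late in microglia against 30.9 and 30.6 at 0 h, so that every late library lay below while in macrophages every one lay above. RRM2 was at 47.9, 39.6, 43.2 and 45.1 in microglia against 39.2 and 34.3. TK1 had the next smallest p, with a difference of 1.29 (SE 0.43, adjusted p = 0.106). The median difference of the 42 genes was 0.46, and 34 lay above 0, while the median of all genes was -0.01. The difference of RFC5 stayed called in all 20 settings tried, and that of RRM2 ended without either macrophage library of 0 h, without macrophage 16 h replicate 1, or without replicate 1 of microglia at 0 h, 16 h or 20 h.

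Some genes that control the entry into S phase were called as well. CDKN1A, the inhibitor p21 of cyclin-dependent kinases, rose in macrophages at 1 h (554 to 915, adjusted p = 3.26e-06), in the middle (828, adjusted p = 8.56e-06) and late (963, 1.74-fold, adjusted p = 3.73e-08), and its late change was higher than in microglia (difference 0.90, SE 0.09, adjusted p = 5.76e-06). CCND1 rose in the middle (865 to 1316, adjusted p = 0.000492) and fell again late (766, adjusted p = 1.42e-06 against the middle). MYC, a transcription factor that promotes growth, rose in the middle (30.9 to 72.5, adjusted p = 0.0212) and was at 16.3 late, below 0 h (adjusted p = 0.0090). CDKN1C, another inhibitor of these kinases, fell late (43.8 to 7.84, adjusted p = 0.00729). Of 27 such control genes 1 rose at 1 h, 3 rose in the middle, and 2 rose and 3 fell late, which is near the shares of all genes (3.01% called at 1 h, 6.8% higher in the middle, and 6.32% higher and 5.94% lower late).

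Among 39 other replication genes, 3 fell in the middle, near the share of all genes that fell (6.44%). These were TOPBP1, which activates origins and the replication checkpoint (117 to 56.2), RFC1, the large loader subunit, and ATAD2. None was called late against 0 h. From the middle to late 11 rose and none fell, where 10.5% of all genes rose and 10.2% fell. TOPBP1 rose again to 120.5 (adjusted p = 0.00193), GINS4 from 75.7 to 131 (adjusted p = 0.00161) and RPA1, of the single-strand binding complex, from 84.3 to 149 (adjusted p = 0.00501). Of 28 mitosis genes 2 rose in the middle and 13 late, and none fell. Of all genes 6.8% rose and 6.44% fell in the middle, and 6.32% rose and 5.94% fell late. The count of 2 was near its share. UBE2C, which drives exit from mitosis, rose from 64.5 to 205 late (3.18-fold, adjusted p = 6.05e-06) and BIRC5 from 226 to 474 (adjusted p = 0.00131). The median log2 change of the mitosis genes late was 0.71, against 0.26 for the 42 replication genes.

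Microglia differed in this respect. Of the 28 mitosis genes 10 fell late and none rose, where 3.01% of all genes were called in either direction. TOP2A, the topoisomerase that untangles chromosomes, fell from 99.0 to 44.5 (adjusted p = 0.000348), UBE2C from 51.0 to 21.9 (adjusted p = 0.00116) and PLK1, a mitotic kinase, from 28.7 to 9.40 (adjusted p = 0.00228). Their median log2 change was -0.65, while that of the 42 replication genes was -0.12 with none called. The late change of 16 mitosis genes was higher in macrophages than in microglia, and of none lower. Of all genes it was higher for 2.49% and lower for 1.89%. For UBE2C the difference was 2.85 (SE 0.28, limma adjusted p = 3.98e-06). CCND1 fell in microglia both in the middle (318 to 210.4, adjusted p = 0.00132) and late (206, adjusted p = 0.000631), and CCND2 rose late (275 to 401, adjusted p = 0.00403).

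In cells from the injured cord the same genes were close to the limit of detection. Of the values of the 28 genes in microglia, 146 of 364 (40.1%) were listed at 1 and 126 (34.6%) rested on more than 3 estimated reads. In monocytes 43 of 224 (19.2%) were listed at 1 and 142 (63.4%) rested on more than 3 reads. All 28 genes together came to 22.7 to 291 estimated reads in a microglia library and 145 to 633 in a monocyte library. RFC2 and PCNA were the most often seen, with more than 3 reads in 16 and 15 of the 21 libraries, as was MCM10 in 15. CDC6 and CCNE2 exceeded 3 reads in 1 library each, and had no read in 19 and 17 of the 21 libraries. PRIM1 and CCNE1 exceeded 3 reads in 4 libraries each, UHRF1 and CHAF1A in 6 each.

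**Figure D4:**
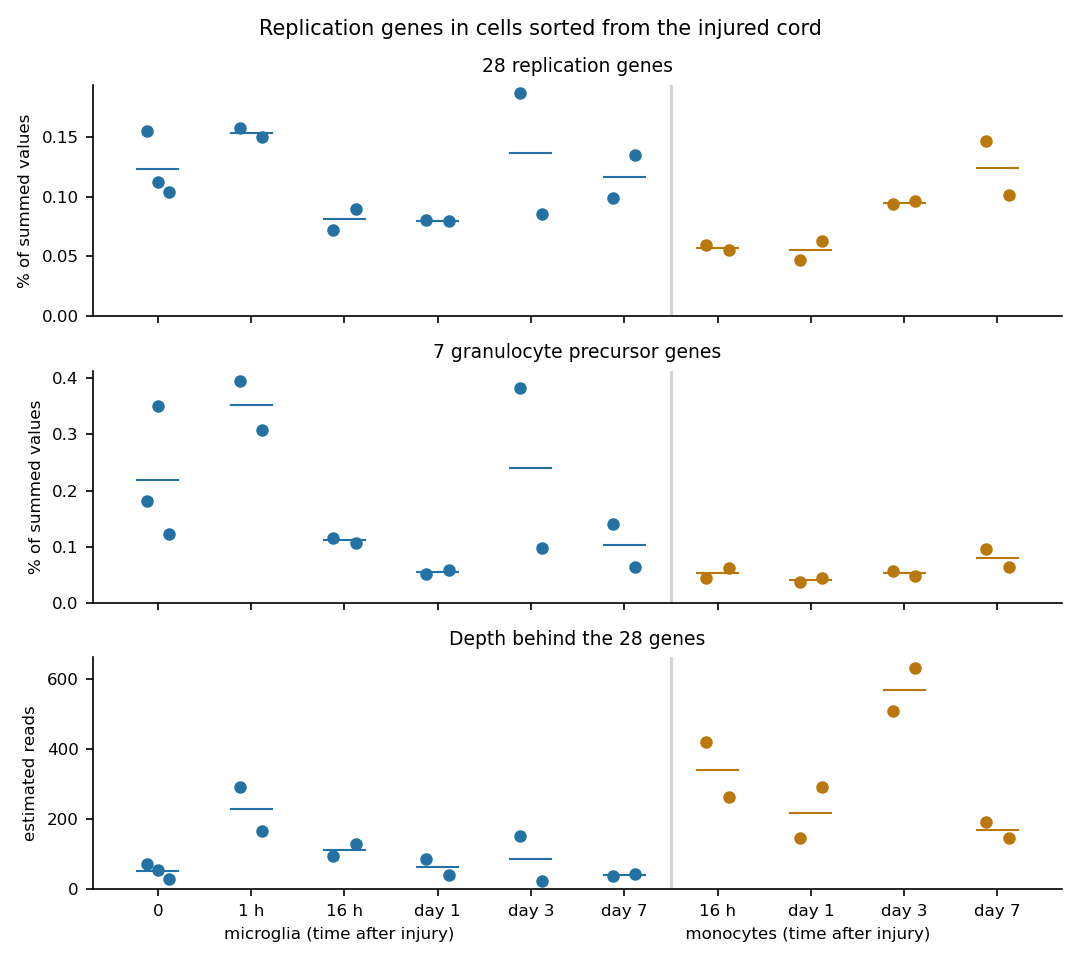
Summed share of the 28 replication genes (top, percent of the summed values), share of 7 genes of granulocyte precursors (middle) and estimated reads behind the 28 genes (bottom) in each library from the cord, with lines at group means. Microglia (blue) stand lowest at 16 h and day 1 in the top panel, and monocytes (brown) lie higher at days 3 and 7 than before.

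The summed share of the 28 genes in microglia was 0.123% ± 0.0273 at time 0 (SD, n = 3), 0.153% ± 0.00493 at 1 h and 0.0810% ± 0.0122 at 16 h (n = 2 each). It was 0.0799% ± 0.000260 on day 1, 0.136% ± 0.0713 on day 3 and 0.116% ± 0.0255 on day 7. The 4 libraries of 16 h and day 1 held 0.0724 to 0.0896%, below all 3 of time 0 at 0.104 to 0.155%. At day 3 the libraries held 0.187% and 0.0857%. In monocytes the share was 0.0571% ± 0.00294 at 16 h, 0.0553% ± 0.0112 on day 1, 0.0948% ± 0.00197 on day 3 and 0.123% ± 0.0318 on day 7 (n = 2 each). Its 4 libraries of days 3 and 7, at 0.0934 to 0.146%, all lay above the 4 of 16 h and day 1, at 0.0474 to 0.0632%. Leaving out values listed at 1 changed the means to 0.0528%, 0.0492%, 0.0924% and 0.119%, with the same order.

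Markers of other cells moved beside these shares. Neutrophil markers (11 of 11 measured) made up 16.1 to 22.2% of the total in microglia at time 0, 20.97 to 22.8% at 1 h, 11.4 to 15.0% at 16 h, 7.92 to 10.7% at day 1 and 14.7 to 15.0% at day 7. The libraries of day 3 held 16.9% and 4.38%. Every library of 16 h and day 1 thus lay below every one of time 0 in these markers, as in the replication genes. In monocytes neutrophil markers made up 0.104 to 0.535%. Genes of granulocyte precursors (7 of 7 measured), cells that divide in bone marrow, made up 0.395% and 0.309% at 1 h, 0.122 to 0.352% at time 0, 0.106 to 0.116% at 16 h and 0.0520 to 0.0590% at day 1, and 0.384% and 0.0969% in the libraries of day 3. The day 3 library with the higher share of these genes was also that with the higher share of replication genes. MPO reached 78.9 in microglia libraries and at most 1.32 in monocytes, and ELANE was found in every monocyte library (32.6 to 64.3). In monocytes the precursor genes held 0.0362 to 0.0617% at 16 h and day 1 and 0.0479 to 0.0950% at days 3 and 7. This share rested mainly on ELANE and PRTN3, with medians of 43.6 and 14.9. MPO, MS4A3 and CTSG had a median of 1 there, FCNB of 1.39 and CEBPE of 2.54. In the cultures, scaled separately, ELANE was at 534 to 645 in microglia and 417 to 501 in macrophages. Its row therefore cannot be read as precursors alone. Microglial markers (8 of 10 measured) made up 0.0724 to 0.592% in microglia libraries and 0.0152 to 0.205% in monocytes, so that these ranges overlapped. In monocytes they were at 0.0152 to 0.0406% at 16 h and day 1 and at 0.0460 to 0.205% at days 3 and 7, every late library above every early one, as for the replication genes. Monocyte markers (8 of 9 measured) made up 0.144 to 0.295% in microglia libraries and 0.466 to 1.16% in monocytes. Neutrophil markers, at 4.38% or more, held more of the total than microglial ones in every microglia library. The names microglia and monocytes are those of the labels. The part of these cells in the shares was not tested.

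MCM6 was the only gene of the 28 that passed in any comparison of cells from the cord. It was at 39.8, 11.3 and 28.02 in microglia at time 0 (12, 4 and 6 estimated reads) and at 16.2 and 11.5 at 1 h. At 16 h it was at 2.00 and 1, at day 1 at 1.11 and 4.61, and at day 3 and day 7 at 1 or 4.15. The 4 libraries of 16 h and day 1 lay below all 3 of time 0 (log2 -3.07, SE 0.66, adjusted p = 0.00968), with 0 to 2 reads each. Neutrophil markers were lower in these 4 libraries too (7.92 to 15.0% against 16.1 to 22.2%). COL1A1, the 1 fibroblast marker measured, made up 0.141, 0.00376 and 0.111% at time 0. In the 4 libraries of 16 h and day 1 it made up 0.000696 to 0.00666%, so that these ranges overlapped. The part of these markers in the call was not tested. Here 0.329% of all genes were lower and 1.19% higher. The call ended in a fit of microglia alone, without 16 h replicate 2 and without day 1 replicate 1. MCM3 had 9.95, 25.5 and 32.7 at time 0 and 1.11 to 4.61 at 16 h and day 1 (log2 -2.63, SE 0.76, adjusted p = 0.0704). PCNA had 4.98, 7.08 and 2.34 and then 7.49, 24.2, 12.8 and 12.7 (log2 1.38, SE 0.64, adjusted p = 0.324). MCM6 and MCM3 thus lay lower and PCNA higher than at time 0 in every library, and MCM6 alone was called. These genes were picked by their small p, and how many of all genes separate this way was not counted. The separation of MCM3 and PCNA is therefore no result by itself.

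**Figure D5:**
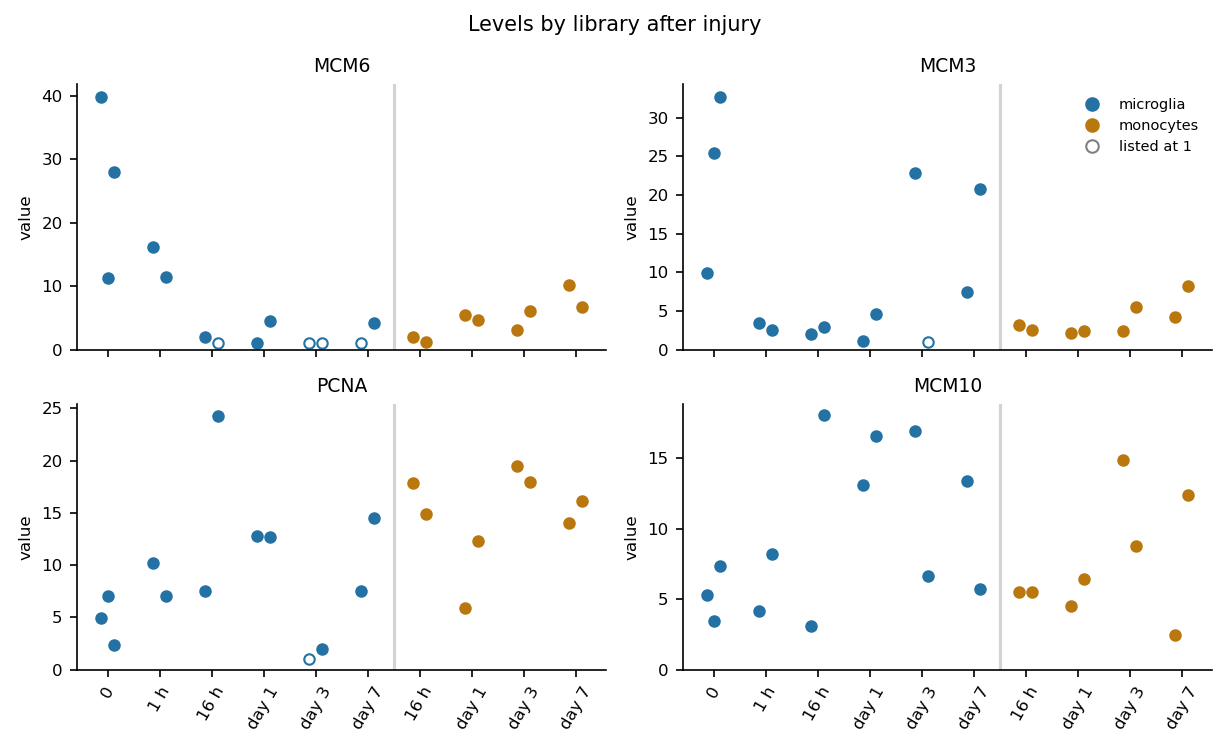
Value of MCM6, MCM3, PCNA and MCM10 in each library from the cord by time after injury, for microglia (blue) and monocytes (brown), with open circles where the value is listed at 1 because no read was counted. MCM6 of microglia stands at 11.3 to 39.8 at time 0 and at 4.61 or less from 16 h on.

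No gene of the 28 was called in the other comparisons of cells from the cord, by limma. At 1 h against time 0 in microglia 0.073% of all genes were called, with 8 of the 28 at an unadjusted p under 0.05. DUT, which keeps uracil out of DNA, was at 14.5 and 15.3 against 1, 2.83 and 1 (adjusted p = 0.306), UHRF1 at 12.4 and 12.7 against 1 in all 3 libraries (adjusted p = 0.175) and MCM3 at 3.41 and 2.55 against 9.95 to 32.7 (adjusted p = 0.429). For each of them the libraries did not overlap, and each rested on at most a few reads on one side. They were picked by their small p, and how many of all genes separate so was not counted.

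Days 3 and 7 against time 0 in microglia gave 0.0122% of all genes called and 2 of the 28 at an unadjusted p under 0.05. MCM6 was again lowest (adjusted p = 0.0553), and CDT1 was at 1, 1, 18.8 and 8.30 against 1 in every library of time 0 (adjusted p = 0.364). CHAF1B was listed at 1 in all 4 late libraries and had 29.9, 1 and 1 at time 0 (adjusted p = 0.394). Days 3 and 7 against 16 h and day 1 gave 1.28% of all genes and 4 of the 28 unadjusted. FEN1 was at 21.1, 8.04, 11.3 and 16.6 against 0.998, 8.89, 3.34 and 1 (adjusted p = 0.156), LIG1 at 16.4, 36.2, 1 and 1 against 1, 1, 1.11 and 4.61 (adjusted p = 0.301) and PCNA averaged 6.26 against 14.3 (adjusted p = 0.288). The higher values of LIG1 were those of day 3. Without the microglia of day 3 the counts stayed at 0 in both comparisons.

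In monocytes, days 3 and 7 against 16 h and day 1 gave 0.84% of all genes called and 0 of the 28, also at an unadjusted p under 0.05. The fitted change was above 0 for 26 of the 28, with a median log2 change of 0.56 against 0.03 for all genes. MCM5 was at 4.58, 7.00, 7.65 and 12.004 against 3.39, 3.30, 1 and 1.32 (log2 1.46, SE 0.79, adjusted p = 0.926). MCM7 was at 5.89, 5.25, 8.07 and 3.75 against 1.87, 2.12, 1 and 0.924 (adjusted p = 0.872), and LIG1 averaged 3.90 against 0.980 (adjusted p = 0.895). For MCM5 and MCM7, picked by their small p, no early library reached a late one. How many of all genes separate so was not counted. The estimated depth was 133911 reads at the lowest and differed between these libraries, and a gene without reads is listed at 1, above the value of 1 read in them (0.170 to 0.850).

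Between monocytes and microglia none of the 28 genes was called at 16 h and day 1 (2.92% of all genes called, 1 of the 28 at an unadjusted p under 0.05) or at days 3 and 7 (2.59% and 4). At days 3 and 7 equal totals called 1, and leaving out a library 0 to 1. At the early times RRM2 averaged 0.940 in monocytes and 4.14 in microglia (adjusted p = 0.352), DUT 0.874 and 3.35 (adjusted p = 0.484), and CCNE2 0.877 and 3.87 (adjusted p = 0.533). At the late times PCNA averaged 16.9 and 6.26 (log2 1.74, SE 0.59, adjusted p = 0.125), MCM6 6.52 and 1.79 (adjusted p = 0.215) and CHAF1A 1.18 and 6.34 (adjusted p = 0.228). For the change between the early and the late times none was called between the cell types either (0.0122% of all genes called, 1 of the 28 unadjusted). PCNA had a difference of 1.89 (SE 0.84, adjusted p = 0.873), RPA2 of -2.14 (SE 1.13) and FEN1 of -1.75 (SE 0.94, adjusted p = 0.931 for both). The standard error of a log2 difference between 4 and 4 libraries had a median of 0.64 over the 28 genes, against 0.20 in culture. Without the microglia of day 3 these counts stayed at 0.

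Related genes gave few calls from the cord. Of 22 other replication genes HELLS, a chromatin remodeller, was higher in microglia at days 3 and 7 than at 16 h and day 1 (10.4 against 1.03, adjusted p = 0.0335). HELLS was also lower in monocytes than in microglia at days 3 and 7 (0.780, adjusted p = 0.00694). Of 21 mitosis genes AURKA, a kinase of the spindle, was lower in monocytes than in microglia at 16 h and day 1 (0.612 against 9.39, adjusted p = 0.0286), and of 18 control genes CCND3, a D-type cyclin (34.8 against 122, adjusted p = 0.0015). All but CCND3 stood at a few reads at most on the lower side. MCM10 was found in every library from the cord, between 2.48 and 18.0, with overlapping ranges in microglia (3.10 to 18.0) and monocytes (2.48 to 14.9).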

How the data were processed

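RNA-seq tables of 23 cultured and 21 in vivo libraries were used. TopHat and the build mm9 are named in the submitters' processing notes, which give no counter, annotation or scaling. The deposited values are a signal per gene. Of low values (20 reads or fewer), 86.5 to 90.5% per library were a whole number of equal steps (to 0.05 steps) and the others fractions of it, so that no count model was used. Where the plan had allowed for counts or normalized values, its branch for normalized values was used. The step stands for the worth of 1 read. A row that named no gene (at most 0.0165% of a total) was left out, and no level was compared between the tables, which were scaled separately.

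The test was limma (version 3.58.1, R 4.3.3) on log2 of the value plus a pseudocount of 1, with a mean for every group, the spread shared within a table, trend and robust options and no filter on low values. The pseudocount makes fold changes of low genes smaller on this scale; folds printed are ratios of group means, weighted equally per time. Adjustment was by Benjamini-Hochberg over all genes of the table in each of 19 comparisons. The procedure was tested on simulated data. The members, gene lists and comparisons were chosen with earlier results of these data known. Named members were those called, at most 10 per comparison with the smallest p first, or the 3 with the smallest p where fewer were called, and the gene of each role with the highest mean; of other lists, at most 4 called genes. Replicate numbers did not pair the libraries (correlations of deviations between -0.048 and 0.064). The title of 1 microglia library reads 1 h and its time tag 2 h; the title was used. Alternatives were other pseudocounts (0.5 and 8), a minimum mean of 10, quantile normalization, equal totals, no trend, fits of single cell types, a replicate block and leaving out each library; a block by column letters, 3 h alone and leaving out microglia of day 3 were chosen after seeing the data. Promoters were matched by symbol. Some results of the other gene lists are not reported here.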

Additional observations from a re-analysis of the deposited data

Results flagged for a closer look

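The late change under TGFb1 differed between cultured macrophages and microglia for RFC5 and RRM2, by a test of the difference itself. For RFC5 the difference of the log2 changes was 1.2629 (SE 0.26, limma adjusted p = 0.00516), and it ran from 1.10 to 1.35 over 20 other settings, in all of which it passed. For RRM2 it was 0.8103 (SE 0.20, adjusted p = 0.0265), with a range from 0.72 to 0.90 and an adjusted p of up to 0.141 when a library was left out.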

How the results depend on the processing

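Of 298 counts of called genes under other settings, over 19 comparisons, 267 lay within 1.5 times the count given above. Of 609 values of 40 results of single genes, 337 under other settings and 235 without a library kept their direction and call, 12 and 25 lost the call, and 0 reversed. A pseudocount of 8 called 8 genes instead of 4 in macrophages late against 0 h, 23 instead of 11 late against the middle, 6 instead of 3 in the middle and 1 instead of 0 in microglia of the cord at days 3 and 7 against time 0, as did a variance without a trend there. Equal totals moved the median log2 difference of all genes from 0.10 to 0.31 for monocytes against microglia at days 3 and 7, and called 18 in macrophages late against the middle and 1 in monocytes against microglia at days 3 and 7. Quantile normalization called 2 in cultured microglia late. Fits of a single cell type called 1 in cultured microglia late, 1 in macrophages in the middle, 1 in monocytes late against early and 0 in microglia of the cord at 16 h and day 1 against time 0. There the minimum mean of 10 left 1 of the 28 genes to test and called 0. The cause of these shifts was not tested.

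Leaving out a library gave 0 to 1 calls in cultured microglia late, 1 to 3 for the difference of late changes, 1 to 4 in macrophages late and in the middle against 0 h, 0 to 1 in microglia of the cord at 16 h and day 1 against time 0, 0 to 2 at days 3 and 7 against time 0, 0 to 1 at days 3 and 7 against 16 h and day 1, and 0 to 1 for monocytes against microglia at days 3 and 7. A group left with 1 library was assumed to vary like the others. With the replicate block, which the check of deviations did not support as a pairing, macrophages gave 13 calls late against the middle, 4 late and 3 in the middle against 0 h, and 37 against microglia at 0 h, and it moved no count by over 1.5 times. Depth limits the values from the cord, where a call rests on a few reads.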
